A study of Mus musculus with 2 samples.

Results

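Cholesterol is made from acetyl-CoA in a long chain of enzymes, and 8 of them, encoded by Hmgcs1, Mvd, Idi1, Fdps, Fdft1, Sqle, Lss and Cyp51, were followed through the colonic crypt cells of a mouse study of Mettl14, a subunit of the methyltransferase that places N6-methyladenosine (m6A) on RNA. The genes were found by their symbols, and all 8 were present, each once, among the 31053 genes of the count matrices. The working label of the set also speaks of uptake, but every one of the 8 encodes an enzyme of synthesis, and genes of sterol uptake were counted as a separate list. The Mettl14_cKO library was made from animals whose floxed Mettl14 alleles were combined with Villin-Cre, a recombinase driven by the promoter of a gut epithelial gene. The control library came from mice with the floxed alleles and no Cre, so both genotypes carried them. Both were C57BL/6 mice at 4 weeks of age, and the labels write the gene as M14, read here as Mettl14. Cells of 3 mice were pooled per genotype and captured on the 10x Genomics droplet platform, which counts RNA molecules by unique molecular identifiers (UMIs). Each genotype therefore had 1 library. No difference between animals could be measured and no test was possible, so all intervals below are 95% intervals for counting error only, and a difference between the libraries is a difference between 2 pools of cells.

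Cells make cholesterol when their membranes hold little of it. The precursor of the transcription factor SREBP2 then leaves the endoplasmic reticulum with its escort SCAP, is cut in the Golgi, and raises transcription of the synthesis enzymes and of genes of sterol uptake together. Sterol in the membrane stops this through INSIG proteins, which hold SCAP back. The intestine is a large site of both cholesterol synthesis and uptake, and proliferating crypt cells need sterol for new membrane. In pathway order, Hmgcs1 makes HMG-CoA, Mvd and Idi1 turn the products of mevalonate into the isoprenoid building blocks, and Fdps joins these into farnesyl diphosphate, which also feeds protein prenylation, dolichol and ubiquinone. Fdft1 (squalene synthase) takes the first step given over to sterols, Sqle puts oxygen on squalene, Lss closes the rings to lanosterol, and Cyp51 removes a methyl group from lanosterol.

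The coordinates are those of GENCODE M21 on GRCm38. The build behind the counts themselves is not stated. Hmgcs1 (ENSMUSG00000093930) lies at chr13:119690379-119708260 on the plus strand, Mvd (ENSMUSG00000006517) at chr8:122433601-122443422 on the minus strand, and Idi1 (ENSMUSG00000058258) at chr13:8885501-8892451 on the plus strand. Fdps (ENSMUSG00000059743) lies at chr3:89093588-89101959 and Fdft1 (ENSMUSG00000021273) at chr14:63145150-63179578, both on the minus strand. Sqle (ENSMUSG00000022351) lies at chr15:59315077-59331192 and Lss (ENSMUSG00000033105) at chr10:76531588-76557138, both on the plus strand, and Cyp51 (ENSMUSG00000001467) at chr5:4081145-4104746 on the minus strand. None is X-linked. Counts of Fdps, Idi1 and Fdft1 are less certain than the others: stretches of 60 bases from the final 500 bases of their transcripts recur in other genes in 47.5%, 38.1% and 15.2% of cases, all predicted genes with Gm names, against 0% for the other 5. Exons of Fdps overlap those of Gm43738 on the same strand. On the opposite strand, exons of Fdft1 overlap those of Ctsb and exons of Cyp51 those of Akap9. Hmgcs1, Idi1 and Lss also have exon overlaps on the opposite strand, with Gm48342, Gm48574 and 4930483K19Rik. The labels do not say whether counting used strand.

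The upstream regions show which known promoter elements these genes share. RefSeq promoter windows (GRCm38.p6, 250 bases before to 50 after the start) were matched for 5 of the 8, namely Hmgcs1, Mvd, Idi1, Lss and Cyp51, and not for Fdps, Fdft1 and Sqle. On either strand, CCAAT, the box bound by NF-Y, stood in 5 of 5 windows, against 37.4% of all 32817 windows of that length, and GGGCGG, the box bound by Sp1, also in 5 of 5, against 35.6%. TCACNCCAC, the sterol regulatory element of the classic SREBP targets, stood in 1 of 5, that of Hmgcs1, against 1.24% of all windows. Its shorter core CACNCCAC overlaps it, and was found in the same single member, against 6.24%. Among 11 other synthesis genes with a window, CCAAT was found in 10, GGGCGG in 10, CACNCCAC in 1 (Acat2) and TCACNCCAC in 0. Of the 5 matched members, Hmgcs1 alone held both TCACNCCAC and CCAAT, and Mvd had the lowest mean log2 ratio between the libraries. Other forms of the sterol element were not searched for. The 250 bases upstream of Hmgcs1 and of Mvd are printed 5′ to 3′ on the strand of the gene. The intervals are chr13:119690101-119690350 (plus strand) and chr8:122443423-122443672 (minus strand), and capitals mark CCAAT or its reverse ATTGG and, in Hmgcs1, the core CACCCCAC.
Hmgcs1: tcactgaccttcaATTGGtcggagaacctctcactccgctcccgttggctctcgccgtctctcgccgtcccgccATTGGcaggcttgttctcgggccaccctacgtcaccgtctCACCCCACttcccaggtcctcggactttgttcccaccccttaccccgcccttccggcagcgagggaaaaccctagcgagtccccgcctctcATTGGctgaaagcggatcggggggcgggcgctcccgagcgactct
Mvd: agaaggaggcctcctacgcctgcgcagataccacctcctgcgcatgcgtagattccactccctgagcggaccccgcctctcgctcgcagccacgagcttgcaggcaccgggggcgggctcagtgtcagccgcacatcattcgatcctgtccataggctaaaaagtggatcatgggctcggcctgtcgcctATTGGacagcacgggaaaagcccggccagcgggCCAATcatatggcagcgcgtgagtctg
For the other 3 matched genes, 30 bases around their CCAAT nearest the 5′ end of the window show the same box, in the forward letters in Cyp51 (chr5:4104709-4104738, minus strand) and in the reverse letters in Idi1 (chr13:8885549-8885578, plus strand) and Lss (chr10:76531531-76531560, plus strand).
Cyp51: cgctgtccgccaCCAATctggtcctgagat
Idi1: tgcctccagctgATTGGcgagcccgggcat
Lss: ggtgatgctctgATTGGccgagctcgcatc
A match of letters is a description of the sequence and shows no binding.

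The Mettl14_cKO library held 89729527 UMIs in 9225 barcodes and the control library 111239295 in 10181. Of these, 7072 Mettl14_cKO and 9077 control cells passed the filters, with medians of 6253.5 and 10037 UMIs per cell. They formed 28 clusters, and the 8 genes and all list genes were left out of the clustering. Of 22 epithelial clusters 18 held at least 90% of their cells from 1 library, and these held 92.6% of 14752 epithelial cells, so most classes compare different clusters of the 2 libraries. The libraries also differ in sex: Xist had 338 CPM (UMIs of a gene per 1000000 UMIs counted) in the Mettl14_cKO library and 0.0629 CPM in the control library, and 4 Y-linked genes summed to 0.0780 and 104 CPM. Genotype and sex cannot be told apart. They shared 33 barcodes. Epithelial-like cells numbered 6048 and 8704, with 14848 and 22124 CPM summed over 10 epithelial genes that include Epcam. Mettl14 itself had 417 UMIs, or 5.06 CPM (4.58 to 5.57), in the epithelial cells of the Mettl14_cKO library and 514 UMIs, or 4.76 CPM (4.36 to 5.19), in those of the control. The labels do not say which exons were floxed or which end of the RNA was read, so the count of the whole gene does not check the deletion.

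All 8 genes were lower in the Mettl14_cKO library in the 4 named epithelial classes with enough cells for a gene-by-gene comparison, the goblet-like, colonocyte-like, cycling-like and enteroendocrine-like cells. Tuft-like cells (44 and 57) held only 93 and 305 UMIs of the 8 genes. There Sqle (7 and 13 UMIs, 34.0 and 29.4 CPM), Lss (3 and 3 UMIs, 14.6 and 6.78 CPM) and Cyp51 (18 and 34 UMIs, 87.3 and 76.9 CPM) ran the other way and the other 5 were lower, with overlapping intervals for all but Fdps. Summed over the 8 genes, goblet-like cells had 664 CPM (655 to 673) in the Mettl14_cKO library and 1393 CPM (1378 to 1408) in the control, from 2403 and 2376 cells. Colonocyte-like cells had 339 CPM (330 to 348) and 860 CPM (848 to 872), from 825 and 1711 cells. Cycling-like cells had 519 CPM (506 to 533) and 954 CPM (944 to 964), from 880 and 2914 cells. Enteroendocrine-like cells had 423 CPM (396 to 452) and 795 CPM (758 to 832), from 386 and 229 cells. No interval of the Mettl14_cKO library reached that of the control in any of these classes. The sum was 2.10-fold lower in goblet-like cells (2.06 to 2.13), 2.54-fold in colonocyte-like (2.46 to 2.62), 1.84-fold in cycling-like (1.79 to 1.89) and 1.88-fold in enteroendocrine-like cells (1.73 to 2.04). The mean log2 ratio over the 4 classes, Mettl14_cKO over control with 1 CPM added to each, was -1.05 (-1.08 to -1.01), while the median of 3899 eligible genes was -0.02. A gene was eligible in a class where it reached 50 CPM in at least 1 library, with 10 UMIs or more.

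**Figure D1:**
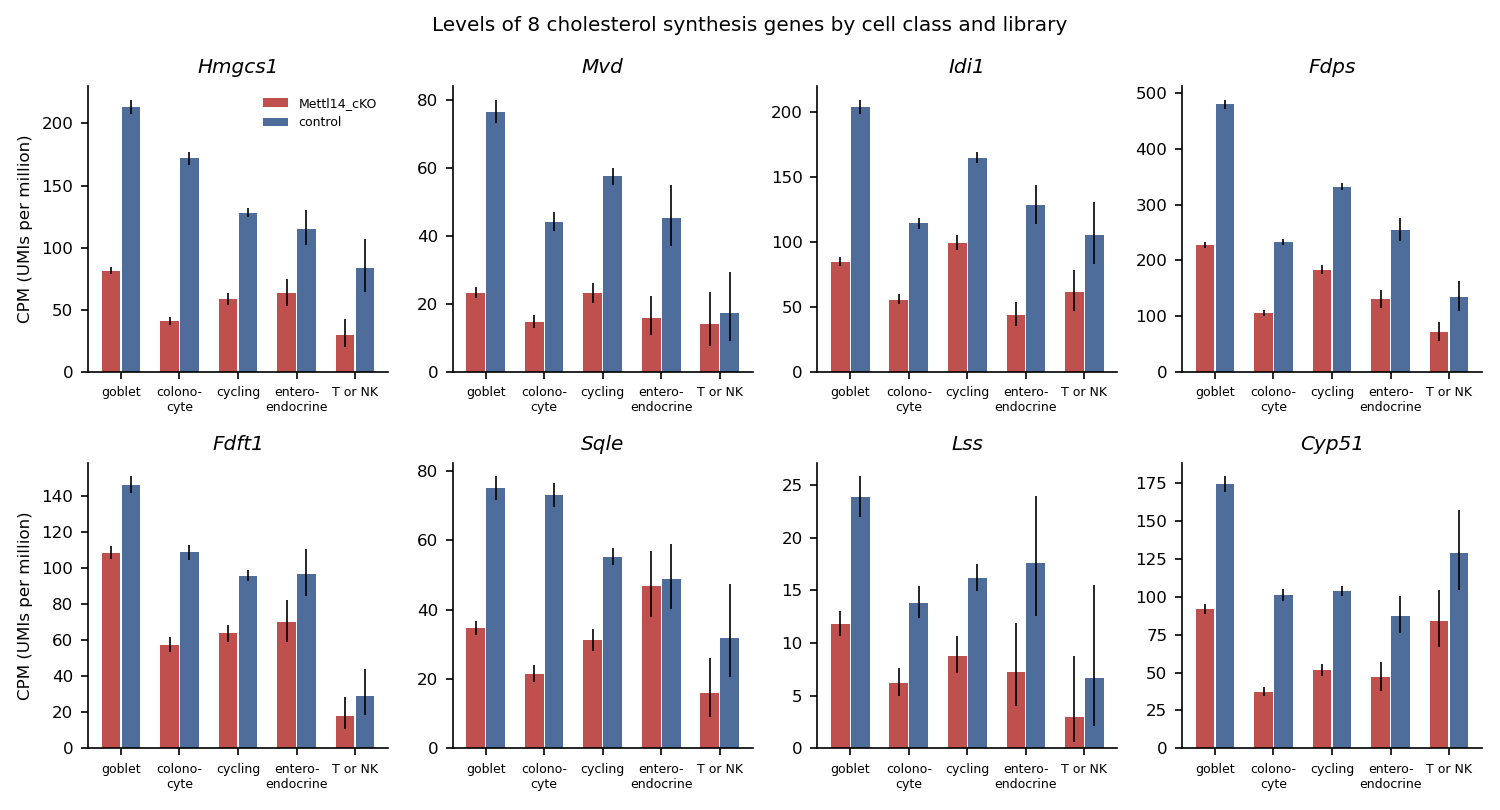
Level of each of the 8 genes in CPM (linear axis from 0) in 5 cell classes, with the Mettl14_cKO library left of the control. Bars are class sums and error bars 95% Poisson intervals for counting error; every Mettl14_cKO bar is lower than its control bar, least so for Sqle in enteroendocrine-like cells (46.8 and 48.9 CPM).

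The 8 genes and the lists were chosen with earlier results of these data known. The shares of all genes given here and below are therefore description and no support for the choice. By size, 8 of 8 genes were at least 1.5-fold lower in the mean over the 4 classes. The share was 13.4% of the 3899 eligible genes and 6.58% of 20597 genes with no limit on level. Of the 8, 7 were themselves eligible and Lss lay under the limit of 50 CPM. Of the 32 values of 8 genes in 4 classes, 32 were below 0 on the log2 scale. The share of all genes below 0 was not counted. Of the same 32 values, 28 were at least 1.5-fold lower. The classes held 7 such genes in goblet-like cells (18.9% of eligible genes), 8 in colonocyte-like (21.1%), 7 in cycling-like (12.1%) and 6 in enteroendocrine-like cells (18.2%). None was higher by this size in any of them, against 14.7%, 29.4%, 10.5% and 22.3% of eligible genes. Lower by this size in each of the 4 classes were 6 of 8 genes, all but Fdft1 and Sqle, against 4.28% of the eligible genes. Fdft1 lay at the 1.5-fold limit, with a mean log2 ratio of -0.59 where the limit is 0.585 in size, and passed it in only 3 of 12 other ways of processing the data. The other 7 passed it in all 12.

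The enzymes of the isoprenoid arm come first in the pathway. Hmgcs1, the cytosolic HMG-CoA synthase, had 81.6 CPM in goblet-like cells of the Mettl14_cKO library against 213 in the control, 40.5 against 172 in colonocyte-like cells, 58.5 against 128 in cycling-like cells and 63.2 against 115 in enteroendocrine-like cells. Its difference varied widely by class, from 1.83-fold lower in enteroendocrine-like (1.48 to 2.27) to 4.24-fold lower in colonocyte-like cells (3.89 to 4.63). This was the greatest fold of any of the 8 genes in any of the 4 classes. Mvd, the decarboxylase that makes isopentenyl diphosphate, had 23.3 CPM against 76.6 in goblet-like, 14.7 against 44.2 in colonocyte-like, 23.1 against 57.6 in cycling-like and 15.9 against 45.3 in enteroendocrine-like cells. It was between 2.49-fold (cycling-like) and 3.29-fold lower (goblet-like), with a mean log2 ratio of -1.48 (-1.64 to -1.32), the lowest of the 8, though the interval overlaps that of Hmgcs1 at -1.35 (-1.44 to -1.26).

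Idi1, which interconverts the isoprenoid building blocks, had 84.7 CPM in the Mettl14_cKO library against 204 in the control in goblet-like cells, 55.5 against 114 in colonocyte-like, 99.2 against 165 in cycling-like and 43.4 against 128 in enteroendocrine-like cells. Its highest fold was the 2.95-fold of enteroendocrine-like cells (2.32 to 3.78), whose interval overlaps that of goblet-like cells, and its lowest the 1.66-fold of cycling-like cells (1.56 to 1.77). Fdps, the farnesyl diphosphate synthase, had 228 CPM against 480 in goblet-like, 106 against 233 in colonocyte-like, 183 against 333 in cycling-like and 130.2 against 255 in enteroendocrine-like cells. It was the most even of the 8, between 1.82-fold (1.73 to 1.90) and 2.21-fold lower (2.09 to 2.34), with a mean of -1.01.

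In the sterol arm the differences were smaller for Fdft1. This squalene synthase had 109 CPM in the Mettl14_cKO library against 146 in the control in goblet-like cells, 57.5 against 109 in colonocyte-like, 63.8 against 95.7 in cycling-like and 69.9 against 96.9 in enteroendocrine-like cells. It was 1.35-fold lower in goblet-like cells (1.28 to 1.41) and 1.89-fold in colonocyte-like cells (1.75 to 2.05). Sqle, the squalene epoxidase and a slow step of the pathway, had 34.6 CPM against 75.02 in goblet-like, 21.5 against 73.1 in colonocyte-like and 31.1 against 55.3 in cycling-like cells. In enteroendocrine-like cells it had 46.8 CPM (97 UMIs) against 48.9 (111 UMIs), a 1.04-fold difference whose interval (0.789 to 1.39) includes equality. Sqle thus spanned the widest range of the 8, since it was 3.39-fold lower in colonocyte-like cells (3.01 to 3.84).

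Lss, the lanosterol synthase, was the most sparsely counted, with 11.8 CPM in the Mettl14_cKO library against 23.8 in the control in goblet-like cells, 6.20 against 13.8 in colonocyte-like, 8.81 against 16.2 in cycling-like and 7.23 against 17.6 in enteroendocrine-like cells. It was 1.84-fold to 2.44-fold lower, and in enteroendocrine-like cells, with 15 and 40 UMIs, the interval ran from 1.32 to 4.75. Cyp51, the lanosterol demethylase, had 91.6 CPM against 174 in goblet-like, 37.3 against 101 in colonocyte-like, 51.5 against 104 in cycling-like and 46.8 against 87.6 in enteroendocrine-like cells. It was 1.87-fold (1.46 to 2.41) to 2.71-fold lower (2.47 to 2.97). Of the 8 genes 5 had their greatest fold of the 4 epithelial classes in colonocyte-like cells, Idi1 and Lss in enteroendocrine-like cells and Mvd in goblet-like cells. For Mvd, Idi1, Fdps and Lss the interval of that class overlapped that of at least 1 other class, so their order is not settled.

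**Figure D2:**
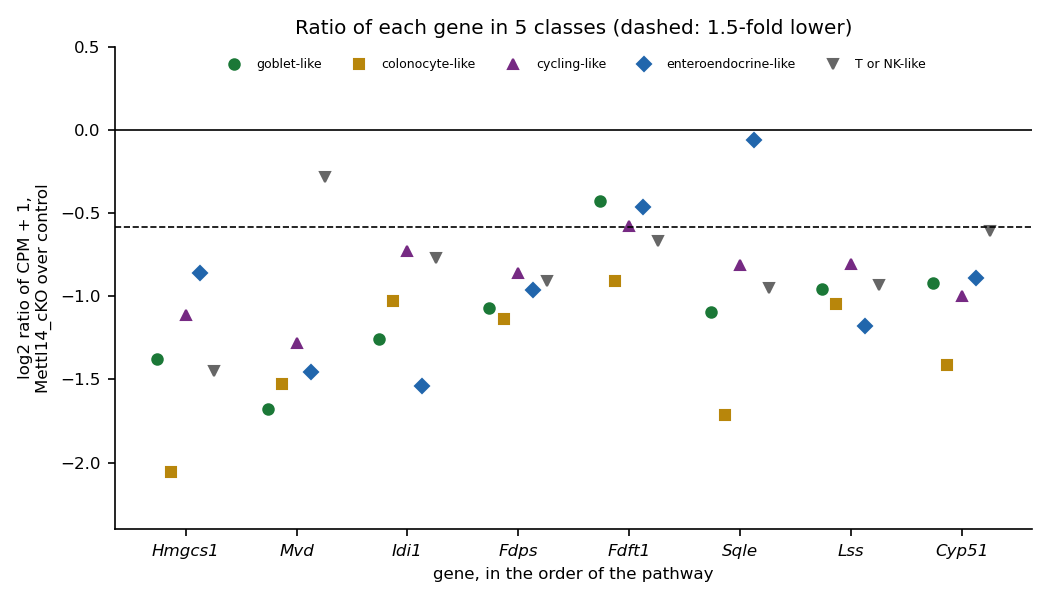
Log2 ratio of CPM + 1, Mettl14_cKO over control, for each of the 8 genes in pathway order, with 1 symbol per cell class, a solid line at 0 and a dashed line at 1.5-fold lower. All symbols lie below 0, from -2.06 (Hmgcs1, colonocyte-like) to -0.06 (Sqle, enteroendocrine-like).

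Other features of the classes also differed between the libraries, some in all and some in only a part of the classes. Median mitochondrial shares in the Mettl14_cKO and control libraries were 5.75% and 3.16% in goblet-like, 4.29% and 4.71% in colonocyte-like, 8.48% and 3.87% in cycling-like, and 2.37% and 2.38% in enteroendocrine-like cells. Without the 4 epithelial clusters whose median mitochondrial share was above 9% (clusters 2, 6, 11 and 12) the mean log2 ratio of the sum was -0.91. Summed colonocyte markers (14 of 14 detected in both) had 11216 CPM in colonocyte-like cells of the Mettl14_cKO library and 70390 CPM in those of the control, and summed goblet markers (13 of 13) had 50399 and 76475 CPM in goblet-like cells. Goblet markers summed to 4253 and 21576 CPM in enteroendocrine-like and to 12803 and 27099 CPM in cycling-like cells, where colonocyte markers had 383 and 2748 CPM. Cycling markers (14 of 14) had 337 and 1912 CPM in enteroendocrine-like but 1620 and 368 CPM in colonocyte-like cells. Their part in the result was not tested. Colonocyte-like cells were mainly cluster 10 in the Mettl14_cKO library (789 of 825 cells) and clusters 8 and 9 in the control. Cycling-like cells were mainly cluster 11 (711 of 880) and clusters 0, 3 and 6, and goblet-like cells clusters 1 and 2 and clusters 4 and 7. Scaling by TMM moved all ratios of colonocyte-like cells by -0.24, of enteroendocrine-like cells by -0.14, of cycling-like cells by -0.03 and of goblet-like cells by 0.06.

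Depth per cell differed between the libraries, so cells were also thinned to 5000 UMIs each. Goblet-like cells of the Mettl14_cKO library then held a mean of 3.27 UMIs of the 8 genes and those of the control 7.13, and 11.7% and 2.40% held none. In colonocyte-like cells the means were 1.74 and 4.36 UMIs, and 26.3% and 3.69% held none. Medians were lower in each class, at 1 and 4 UMIs in colonocyte-like and 3 and 6 in goblet-like cells. They were 2 and 4 in cycling-like and 2 and 3 in enteroendocrine-like cells, whose lower quartile was 1 UMI in both libraries. Cells with at least 10 UMIs of the 8 genes made up 3.52% of goblet-like cells in the Mettl14_cKO library and 26.1% in the control. In cycling-like cells they made up 1.68% and 8.96%. The numbers of cells deep enough for this were 1504 and 1705 goblet-like, 673 and 1302 colonocyte-like, 476 and 1897 cycling-like and 143 and 124 enteroendocrine-like cells.

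**Figure D3:**
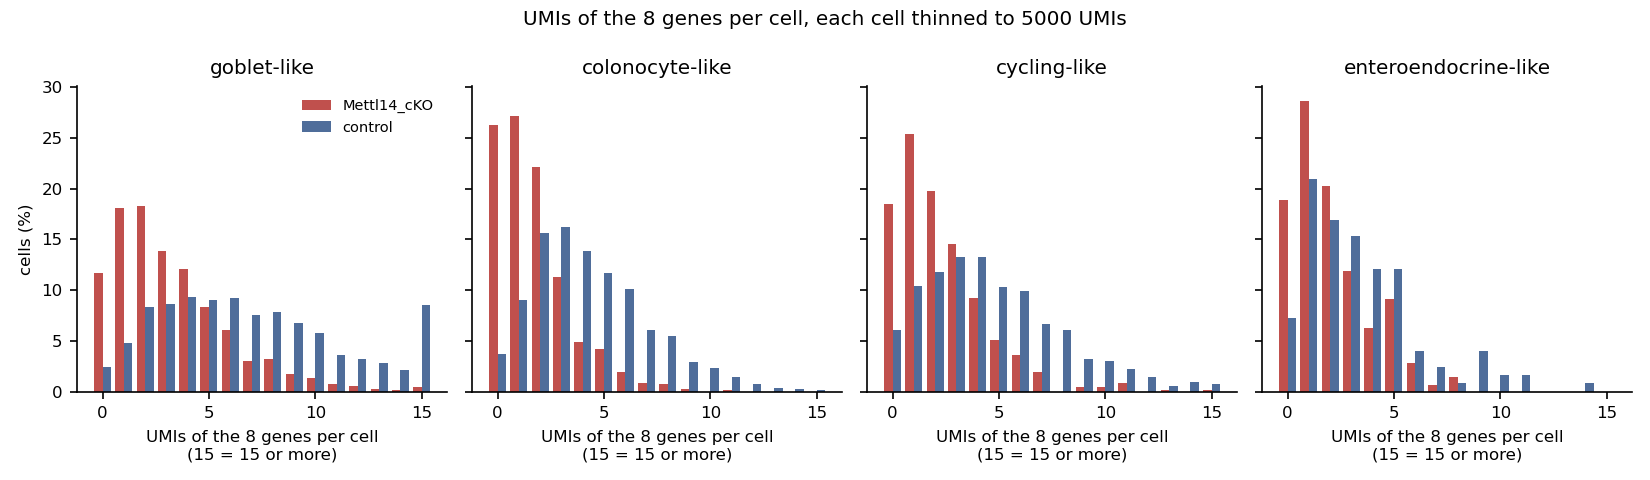
Percentage of cells (vertical axis) by the number of UMIs of the 8 genes they hold (horizontal axis, 15 standing for 15 or more), after thinning each cell to 5000 UMIs, in 4 epithelial classes, with the Mettl14_cKO library left of the control. The Mettl14_cKO cells sit at lower numbers in every class, with means of 3.27 against 7.13 UMIs in goblet-like cells.

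In T or NK-like cells, which Villin-Cre should not reach, the 8 genes summed to 297 UMIs, or 297 CPM (265 to 333), in 393 Mettl14_cKO cells and to 404 UMIs, or 537 CPM (486 to 592), in 358 control cells. The 15 markers of this class were all detected there, with 14677 and 24112 CPM. The sum was 1.80-fold lower (1.55 to 2.10), a log2 ratio of -0.85. Hmgcs1 had 30.05 CPM (30 UMIs) against 83.7 (63 UMIs), 2.79-fold lower (1.78 to 4.46), and Fdps had 71.1 against 134 CPM, 1.89-fold lower (1.38 to 2.59). Idi1 had 61.1 against 105 CPM, and Cyp51 had 84.1 against 129 CPM, 1.53-fold lower (1.13 to 2.08). For the less abundant genes the counts do not show a difference: Mvd had 14 and 13 UMIs, Fdft1 18 and 22 and Lss 3 and 5, and their intervals include equality. By size alone 7 of 8 genes were at least 1.5-fold lower, against 10.5% of 2740 eligible genes, but only 4 of the 8 were eligible in these cells. Of the 8, 5 were lower by that size in all 5 classes, against 2.9% of the 3899 genes eligible in an epithelial class. They were Hmgcs1, Idi1, Fdps, Cyp51 and Lss. Lss was not eligible in any class and counts here on its 3 and 5 UMIs. Whether T or NK-like and epithelial cells differ in this ratio was not tested.

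Epithelial transcripts were counted in the droplets of T or NK-like cells at unequal levels, and free RNA, doublets and attached cells were not told apart as their source. With no doublets removed the log2 ratio of the sum was -1.27. The 10 epithelial genes Epcam, Krt8, Krt18, Krt19, Cdh17, Lgals4, Phgr1, Cldn7, Tspan8 and Elf3, all detected, had 13.2% of their epithelial level in T or NK-like cells of the Mettl14_cKO library and 24.1% in those of the control. Colonocyte markers there summed to 271 and 5635 CPM. That share of the epithelial level was then subtracted, and the remainder was divided by 1 minus the share. The 8 genes then had 252 CPM in the Mettl14_cKO library and 356 CPM in the control. The log2 ratio was -0.50, which is less than 1.5-fold. The division raised the control value more, because its share was larger. With T cells taken from Cd3d, Cd3e or Cd3g UMIs without an Epcam UMI (278 and 148 cells), the sums were 292 and 429 CPM, a log2 ratio of -0.56. Cluster 21, with Il17a and Trdc among its leading genes, held 216 Mettl14_cKO and 4 control cells. In cluster 14 alone, which both libraries filled, the sums were 317 and 539 CPM, 1.70-fold lower (1.42 to 2.03).

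Ordered by the summed level of the 8 genes, the class labels ran alike in both libraries at the top and differently below. The top label, unnamed epithelial, held mostly different clusters. In the Mettl14_cKO library 627 of its 1510 cells were cluster 12 (235 CPM) and 578 were cluster 13 (607 CPM). In the control 884 of 1417 were cluster 5 (1641 CPM). The Mettl14_cKO library had 730 CPM (719 to 741) in unnamed epithelial cells, 664 in goblet-like, 519 in cycling-like, 451 in tuft-like (364 to 553), 423 in enteroendocrine-like, 384 in B or plasma-like (337 to 436), 339 in colonocyte-like, 297 in T or NK-like and 241 in myeloid-like cells (212 to 273). The control had 1425 CPM (1408 to 1443) in unnamed epithelial cells, 1393 in goblet-like, 954 in cycling-like, 860 in colonocyte-like, 795 in enteroendocrine-like, 689 in tuft-like (614 to 771) and 537 in T or NK-like cells. Tuft-like cells could not be told from enteroendocrine-like cells by counting error in either library, nor from cycling-like and B or plasma-like cells in the Mettl14_cKO library. In the Mettl14_cKO library colonocyte-like cells overlapped both B or plasma-like and T or NK-like cells. In the control they lay above T or NK-like cells by 860 against 537 CPM, with intervals of 848 to 872 and 486 to 592.

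Among clusters with at least 50 cells, 17 in each library, the sum of the 8 genes spanned 169 to 985 CPM (5.82-fold) in the Mettl14_cKO library and 524 to 1641 CPM (3.13-fold) in the control. The lowest Mettl14_cKO cluster was 22, not epithelial and led by S100a9, with 77 UMIs of the 8 genes and 0 control cells. Its lowest epithelial cluster was 12, with 235 CPM, while the lowest control cluster was epithelial, cycling-like cluster 11. The 2 spans therefore cover unlike sets of clusters. The highest Mettl14_cKO cluster was 18, led by Trf, Defb45 and Hoxb13. The highest control cluster was 5, led by Ido1, Ceacam12 and Plet1, followed by goblet-like clusters 4 (1593 CPM) and 7 (1451 CPM). Cluster 18 held cells of both libraries, 259 and 116, and there the 8 genes had 985 CPM in the Mettl14_cKO library and 1034 CPM in the control, 1.05-fold lower (0.997 to 1.10). Single genes in it ran from a log2 ratio of -0.39 (Sqle) to 0.66 (Lss). Other epithelial clusters with at least 50 cells of each library were cycling-like clusters 3, 6 and 11 and enteroendocrine-like clusters 15 and 25. The sum was 1.29-fold lower in cluster 3 (1.21 to 1.37) and 1.47-fold in cluster 6 (1.22 to 1.78). It was 1.25-fold lower in cluster 11 (0.996 to 1.56), 1.91-fold in cluster 15 (1.73 to 2.11) and 1.80-fold in cluster 25 (1.56 to 2.08). Clusters 3, 6 and 11 held 93.7%, 93.8% and 92.6% of their cells from 1 library. Their median depths were 20268, 2251 and 5127 UMIs in the Mettl14_cKO library and 11202, 1861 and 1998 in the control. Their median mitochondrial shares were 3.09%, 14.5% and 9.69% against 3.28%, 9.19% and 4.59%. Cycling-like clusters 3, 6 and 11 thus differed less between the libraries than the 1.84-fold of their class. Enteroendocrine-like clusters 15 and 25 stood near the 1.88-fold of theirs.

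**Figure D4:**
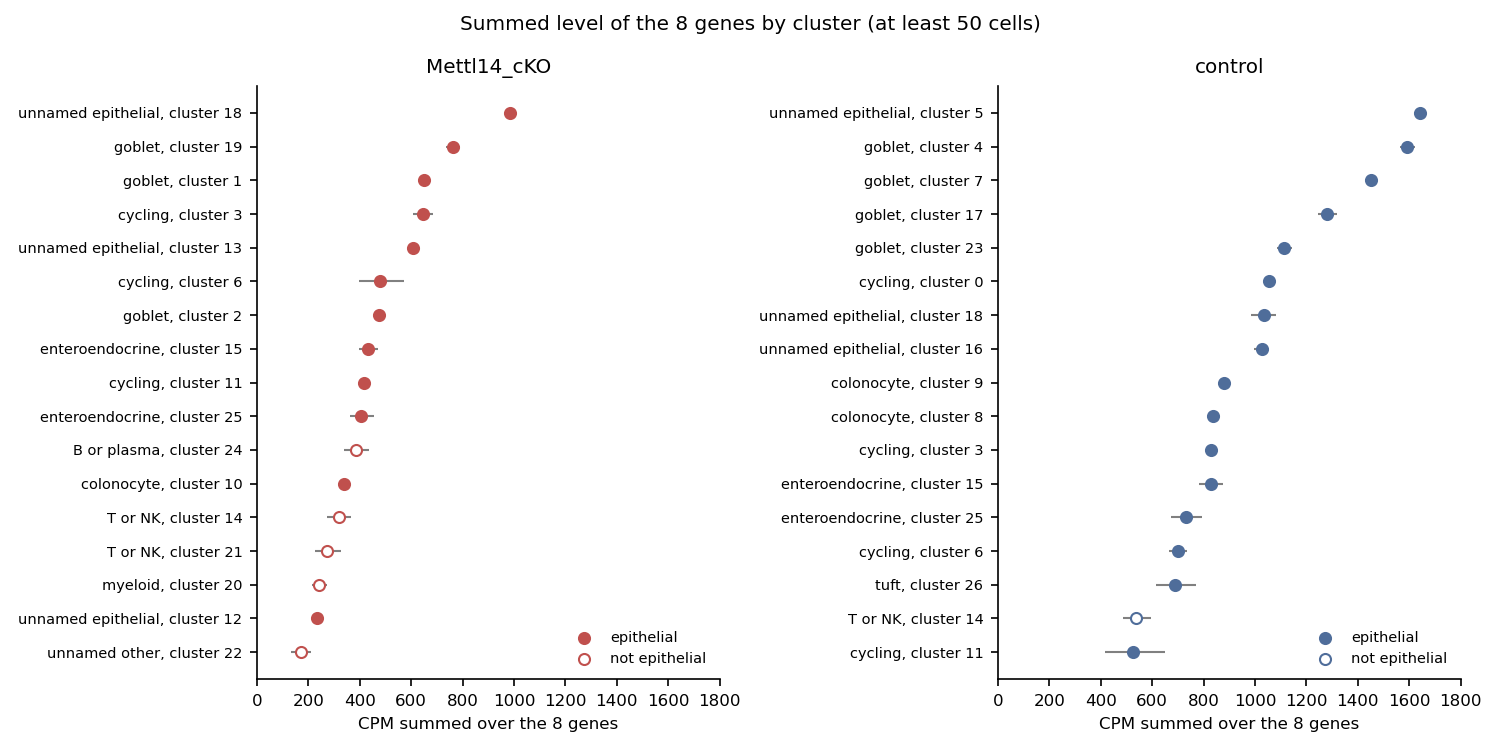
Summed CPM of the 8 genes in every cluster with at least 50 cells, Mettl14_cKO library on the left and control on the right, each sorted by level, with 95% Poisson intervals. Filled points are epithelial and open points other clusters; Mettl14_cKO clusters reach 985 CPM (cluster 18) and control clusters 1641 CPM (cluster 5).

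Some Mettl14_cKO cells fell into clusters made almost wholly of control cells. In the 11 epithelial clusters with at least 90% control cells, 317 Mettl14_cKO cells had 850 CPM of the 8 genes (828 to 873) and the 8231 control cells 1118 CPM (1111 to 1124). The 7 epithelial clusters with at least 90% Mettl14_cKO cells held 5042 Mettl14_cKO and 71 control cells. The 5042 cells had 528 CPM (522 to 533) and the 71 control cells 541 CPM (445 to 652). These 71 cells held only 110 UMIs of the 8 genes, and 57 of them were in cycling-like cluster 11. Their median depth was 1998 UMIs, against 8536 in the 5042 cells, so the 2 values compare unlike cells. The 317 cells lay between the 5042 Mettl14_cKO cells and the 8231 control cells for 8 of 8 genes. The share of all genes that lay between was not counted, so this is not shown to be particular to the 8. The 317 cells had, for example, 106 CPM of Hmgcs1 against 64.2 and 172 CPM, and 326 CPM of Fdps against 174 and 373 CPM. By sex-linked RNA they matched their own library, with 283 CPM of Xist and 0.755 CPM of the 4 Y-linked genes. The 317 cells and the 8231 control cells spread differently over their clusters, with median depths of 18350 and 10588 UMIs.

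Within each library, where genotype was constant, the 8 genes varied together across clusters. Over 28 pairs of genes, Pearson's r of log2(CPM + 1) across 17 clusters ranged from 0.21 to 0.91 with a median of 0.63 in the Mettl14_cKO library, and from 0.41 to 0.90 with a median of 0.69 in the control. Sqle and Lss were the closest pair in the Mettl14_cKO library and Mvd and Fdps in the control. Against the mean of the other 7, r ran from 0.42 for Cyp51 to 0.97 for Hmgcs1 in the Mettl14_cKO library, and from 0.71 for Sqle to 0.91 for Fdft1 in the control. The clusters share a library and differ in depth: r of the members' mean with log depth was 0.71 and 0.64, and the median r of eligible genes with that mean was 0.35 and 0.09. Of 3890 eligible genes that were not members, the 10 with the most similar pattern, by the lower r of the 2 libraries, were Gmds, St6galnac6, Plpp5, Pdzd11, Msmo1, Kdelr1, Pgm3, Kdelr2, Stard4 and Gdpd1, with r from 0.861 to 0.822. Of these, Msmo1 is a sterol enzyme and Stard4 a sterol carrier, while Gmds and Pgm3 make sugar nucleotides and Kdelr1 and Kdelr2 return proteins to the endoplasmic reticulum.

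The other 13 enzymes of cholesterol synthesis were lower to a lesser degree. All 13 had a mean log2 ratio below 0, in 1 case by less than some scalings move it. The share of all genes below 0 was not counted. Of the 13, 5 were at least 1.5-fold lower and 0 higher, against 6.58% and 11.5% of all genes with no limit on level. The median was -0.45 beside -1.03 for the 8 members. Only 8 of the 13 were eligible. Of those, 2 were lower and 0 higher, against 13.4% and 15.1% of eligible genes, with a median of -0.39. Msmo1, a methylsterol oxidase, had 120 CPM in goblet-like cells of the Mettl14_cKO library and 213 CPM in the control, with a mean log2 ratio of -0.81. Acat2, which makes acetoacetyl-CoA, had a mean of -0.89, the mevalonate kinase Mvk -0.79, Tm7sf2 -0.64 and the X-linked Nsdhl -0.61. Acat2, Tm7sf2 and Nsdhl lay under the 50 CPM limit.

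Of 13 genes of sterol sensing and SREBP control 2 were at least 1.5-fold higher (11.5% of all genes), 0 lower (6.58%) and 11 between, with a median of 0.06, and of the 4 that were eligible none passed this size. Srebf2, the gene of SREBP2, had a mean of -0.56, with 28.8 CPM in the Mettl14_cKO library against 50.4 in the control in goblet-like and 23.3 against 47.9 in colonocyte-like cells but 46.3 against 46.7 in enteroendocrine-like cells. Insig1, itself an SREBP target, had -0.43. One of the higher genes was the X-linked site-2 protease gene Mbtps2 (0.84), which lay under the 50 CPM limit. Of 18 genes of uptake and transport 5 were higher (11.5% of all genes), 2 lower (6.58%) and 11 between, with a median of 0.04. Of the 5 that were eligible 0 were higher and 1 lower, with a median of -0.18. Stard4 had -0.59 and Lrp1, a large lipoprotein receptor with 7.36 against 41.7 CPM in colonocyte-like cells, -1.66. Among those higher in each class were Npc1 (0.77), Osbpl1a (0.76) and Gramd1a (0.90), all under the 50 CPM limit.

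Of 14 genes of efflux, storage and the LXR sterol receptors 2 were higher (11.5% of all genes), 1 lower (6.58%) and 11 between, with a median of 0.20. The cholesterol exporter gene Abcg1 was higher (1.32), with 6.61 CPM in goblet-like cells of the Mettl14_cKO library and 0.652 CPM in those of the control, and the LXR gene Nr1h3 lower (-1.44). Abca1, a second exporter and LXR target, had at most 3.86 CPM in the 4 classes, with 4 UMIs against 4 in goblet-like cells. Of 13 genes of the non-sterol branches that draw on Fdps product or its precursors, 0 were higher, 1 lower (Pdss1, -0.69) and 12 between, with a median of 0.08, beside the same 11.5% and 6.58%. Of 14 genes of fatty acid synthesis 1 was higher (11.5% of all genes) and 5 lower (6.58%), with a median of -0.20. Of the 4 that were eligible 0 were higher and 3 lower, against 15.1% and 13.4% of eligible genes. The median of these 4 was -0.67, lower than the -0.39 of the eligible other synthesis enzymes. Scd2, a desaturase with 79.3 against 176 CPM in goblet-like cells, had -0.95, the fatty acid synthase Fasn -0.77 and the acetyl-CoA synthetase Acss2 -0.71, while the desaturase Fads1 had 1.14. TMM and median-of-ratios scaling move every one of these means by -0.09 and -0.11, so the medians of 0.04, 0.06 and 0.08 have no stable sign.

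**Figure D5:**
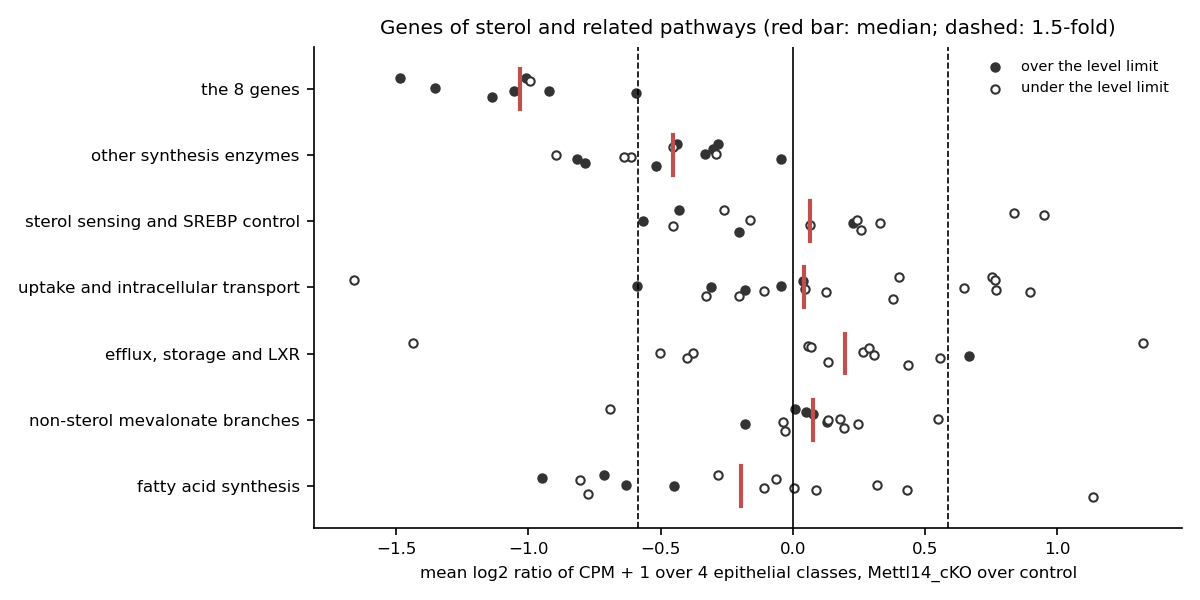
Mean log2 ratio over 4 epithelial classes, Mettl14_cKO over control, of the 8 genes and of 6 lists of related genes. Each point is a gene (filled where at least 50 CPM and 10 UMIs in a class, open below that), the red bar is the list median and dashed lines mark 1.5-fold; the medians are -1.03 for the 8 genes, -0.45 for the other synthesis enzymes and 0.06 for SREBP control.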

How the data were processed

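The authors deposited whole UMI counts for every gene in every called barcode. Cell Ranger is given as 3.0.0 per the submitters' processing notes and as 3.1.0 per the file headers, and the notes also list Seurat 3. Barcodes needed 500 or more detected genes and a mitochondrial share below 25%, and those with a Scrublet score of at least 0.25 removed as doublets (53 Mettl14_cKO, 0.744%, and 77 control, 0.841%), because the automatic threshold marked 1 and 2. Counts scaled to 10000 per cell, 2000 variable genes without the members and list genes, 30 principal components and 15 neighbours gave Leiden clusters at resolution 1 (scanpy 1.11.5, leidenalg 0.10.2). A cluster was named "-like" with at least 3 fixed markers among its 50 leading genes while no rival class had more in the first 10. Clusters left unnamed were taken as epithelial if their Epcam level was at least 50% of the named epithelial median. The doublet score, the naming rules, the 9% mitochondrial limit and the comparison of cells in clusters held mostly by 1 library were set after the data were seen. The 8 genes and the lists were chosen with earlier results of these data known.

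Counts were summed by class and scaled to CPM with exact Poisson intervals, and ratios have exact conditional intervals. The 95% intervals cover counting error only. The ratio code was tested on simulated data. A single library per genotype allows no test, so a 1.5-fold size rule was used. List genes are named where they passed that size and kept 1 sign in all classes, and Insig1, Srebf2, Abca1 and Stard4 in any case; some genes that the rule names are not reported here. DESeq2-like and edgeR 4.0.16 TMM scaling, cell filters, resolutions and thinning were alternatives.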

Additional observations from a re-analysis of the deposited data

How the results depend on the processing

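The sum of the 8 genes was lower in the Mettl14_cKO library under every alternative tried, and no result changed sign. The mean log2 ratio over 4 epithelial classes (-1.05) was -0.95 at Leiden resolution 0.5, -1.01 after thinning to 1700 UMIs, -1.16 with median-of-ratios and -1.14 with TMM scaling, -0.99 with totals without mitochondrial and ribosomal genes, and -0.91 without clusters of high mitochondrial share. Over all epithelial-like cells (-0.89) it was -0.83 with the stricter and -0.91 with the lenient cell filter, -1.09 after thinning, -0.98 and -0.95 with median-of-ratios and TMM scaling, -0.81 with the reduced totals, -1.09 with equal weight per cell and -0.80 without the high mitochondrial clusters. In T or NK-like cells (-0.85) it was -1.08 with the stricter filter and -1.27 with no doublets removed, and it dropped under 1.5-fold with marker gates (-0.56) and with epithelial RNA subtracted (-0.50). The subtraction used an epithelial share of 13.2% in the Mettl14_cKO library and 24.1% in the control, and divided the remainder by 1 minus the share. The cause of the other shifts was not tested. From 7 to 8 members were at least 1.5-fold lower, the one that varied being Fdft1. No limit on low counts left the number at 8, since it does not act on members. No paired analysis was possible because each genotype had 1 pooled library, and for the same reason no replicate could be left out. Depth limits Lss in enteroendocrine-like cells, and Mvd, Fdft1 and Lss in T or NK-like cells.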
